A study of Drosophila melanogaster with 6 samples.

Results

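Small nucleolar RNA (snoRNA) genes were followed through the polyadenylated RNA of Drosophila melanogaster cells. Every row of the deposited count tables whose symbol begins with snoRNA was taken, which gave 271 of 14770 genes. They comprised 108 rows with names starting Psi, which name a pseudouridine in ribosomal RNA. Another 96 rows start with Me and name a methylated nucleotide in ribosomal or spliceosomal RNA, and 67 rows have other names. By the coordinates in the tables (genome build dm3), 93 lay on chromosome arm 2R, 52 on 3L, 46 on 3R, 42 on 2L, 36 on X and 1 each on 4 and 3LHet.

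S2 cells are a line of blood-cell (hemocyte) character derived from late embryos. Libraries came from S2-DRSC cells (S2, replicates 1 to 4) and from a stable transfectant of these cells that carries HA::AbdA, a tagged form of the Hox transcription factor abdominal-A (S2-AbdA replicates 1 and 2). Both groups had received 10 µM copper sulphate for 24 h. The labels name neither the promoter of the transgene nor cells transfected without AbdA, so an effect of AbdA and one of stable transfection cannot be told apart. S2 replicates 3 and 4 were kept as a set of their own, because their descriptions lack the reference to the authors' result table that the other 4 carry. No label says that replicates are separate cultures, so a p-value here reflects the spread of these libraries alone, possibly technical.

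A snoRNA guides a protein complex to a chosen nucleotide of another RNA. Box H/ACA snoRNAs pair with the target to direct pseudouridylation by dyskerin (Nop60B in flies), and box C/D snoRNAs direct 2'-O-methylation by fibrillarin (Fib). Most fly snoRNAs lie in introns of host genes, many of them ribosomal protein genes or Uhg genes, whose spliced product carries no long reading frame, and they are trimmed out of the excised intron. The mature RNAs have no poly(A) tail, and the column kit named in the labels recovers mainly longer RNA, so a count here may stem from a precursor, an unspliced host transcript, a tailed snoRNA or leftover mature RNA. Which of these gave the counts was not tested. How the authors' counting treated strand is not given, so reads of a snoRNA row and of the gene around it cannot be told apart, and near-identical tandem copies are uncertain.

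The 6 libraries held 34233132 to 69858688 counts. The targeted gene abd-A had 29.1 and 52.7 CPM (counts scaled to the library's total, set to a common size) in S2 replicates 1 and 2, 0 and 0.0429 in replicates 3 and 4, and 17289 and 10909 in S2-AbdA. The blood-cell genes srp, Hml and crq were present in every library, but others were low in part of them. eater was at 1.07 and 0.744 CPM in S2 replicates 3 and 4 and at 2.30 and 9.60 CPM in S2-AbdA, Sr-CI at 0.315 and 0.186 and at 0.780 and 2.29 CPM, and nimC1 at 0 and 0.0429 and at 0.169 and 0.259 CPM. Pxn was at 188, 56.0, 62.6 and 230.1 CPM in S2 replicates 1 to 4 and at 7.68 and 23.2 CPM in S2-AbdA. Relative to S2 replicates 1 and 2, 4 of these 7 blood-cell genes were called lower in S2-AbdA and 5 in S2 replicates 3 and 4 (edgeR's quasi-likelihood test, adjusted p under 0.10). Among all genes tested, 7.36% and 18.9% were called lower in these comparisons. The neuronal gene elav was at 16.1 to 39.3 CPM, and nSyb stayed under 0.293 CPM. S2 replicate 3 stood apart in its scaling factor (TMM, trimmed mean of M values), 0.752 against values up to 1.10 in the others.

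The snoRNA rows were a small part of these libraries. They summed to 2575, 2606, 6529 and 7001 counts in S2 replicates 1 to 4 and to 3430 and 3233 counts in S2-AbdA replicates 1 and 2, or 0.00595 to 0.0121% of a library. At least 1 count in some library was found for 246 rows, and 60 rows had 10 or more counts in every library. Only 6 rows reached 1 CPM in all 6 libraries. A count of 0 allows up to 3 counts, which is 0.0429 to 0.0876 CPM in a single library (intervals and limits here cover counting error only).

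The 25 rows at 0 in all libraries were unevenly spread over the annotation. By their NCBI gene number, 242 rows matched a gene of the later fly annotation (RefSeq Release 6), and 29 did not. Of the 29, 14 had no count in any library, 8 had 1 count, and 5 passed the filter on low counts, while 11 of the 242 matched rows had no count. The deposited span equalled the RefSeq length in 206 of the 242 rows and was at least 10 bases shorter in 11, and 5 spans were under 20 bases. A row so short can hold few reads, so its low count does not describe its snoRNA.

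**Figure D1:**
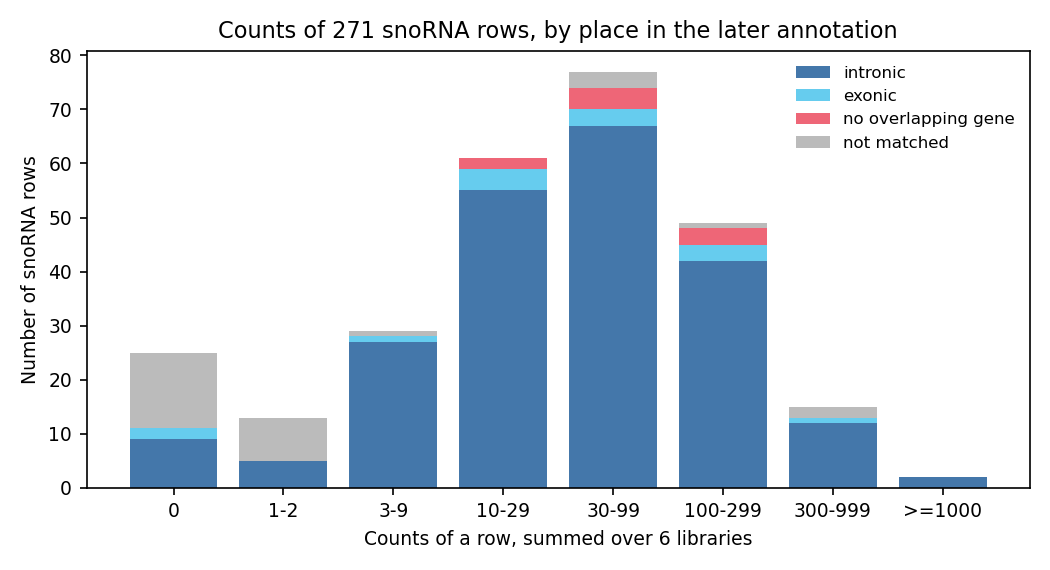
Number of snoRNA rows (vertical axis) by their counts summed over the 6 libraries (horizontal axis, unequal bins), coloured by their place in the later annotation. Of the 271 rows, 25 had no count, 77 had between 30 and 99, and 2 had 1000 or more, and 14 of the 25 without counts were among the rows that did not match a later gene.

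By coordinates, 261 rows lay wholly inside another row and 10 lay inside none. The 261 fell into 109 host rows, of which 18 held 4 or more and together 148. The richest were Arpc2, a subunit of the actin-nucleating Arp2/3 complex, with 17 rows, Uhg1 and the chromatin remodeller dom with 16 each, the ribosomal protein gene RpS5a with 14 and Uhg5 with 11. The others, from 9 down to 4 rows, were CG13900 (the splicing factor Sf3b3), exba (now kra), Hrb98DE, Nop60B, RpS7, Uhg4, RpL28, CG10576, RpS16, lola, Uhg8, RpL17 and Uhg2. In the later annotation 219 rows were intronic, 14 overlapped an exon and 9 overlapped no other gene.

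Rows inside the 29 ribosomal protein hosts carried most of the signal. These 69 rows summed to 45.9 and 34.4 CPM in S2 replicates 1 and 2 and to 84.0 and 63.7 CPM in replicates 3 and 4. The 44 rows inside 7 Uhg genes summed to 3.39 and 2.22 CPM in replicates 1 and 2 and to 7.81 and 6.90 CPM in replicates 3 and 4. For both host classes replicates 3 and 4 were above replicates 1 and 2 without overlap. The 148 rows inside other genes gave 23.5, 20.4, 25.4 and 26.7 CPM in S2 replicates 1 to 4, a ratio of means of 1.19, against 1.84 for ribosomal protein hosts and 2.62 for Uhg hosts. The difference between these ratios was not tested.

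**Figure D2:**
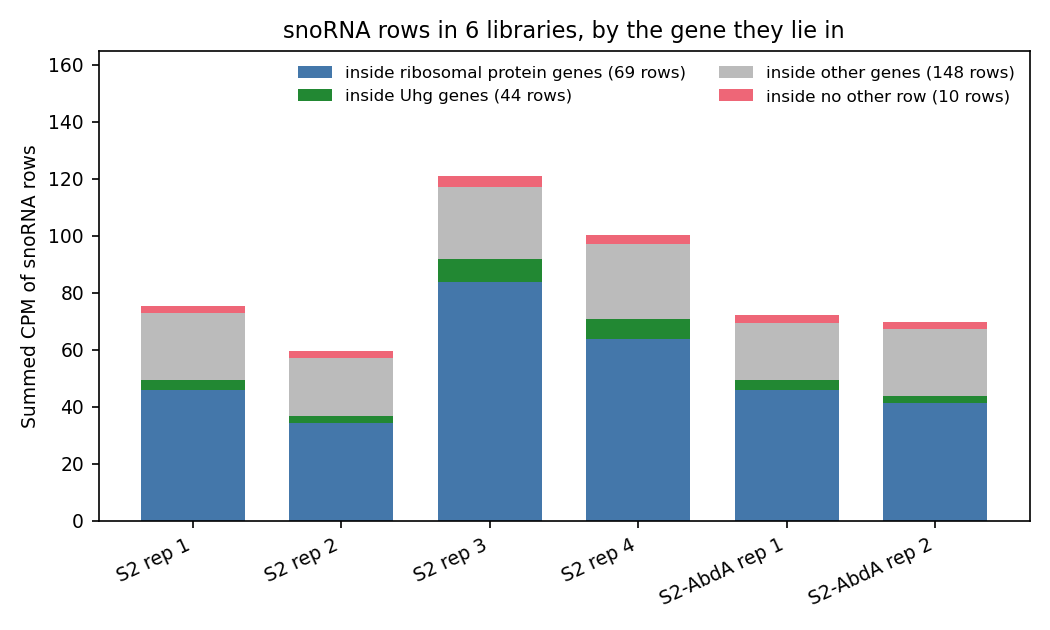
Summed CPM of snoRNA rows in each library (bars from 0), stacked by the kind of gene they lie in. The total was 120.9 and 100.2 CPM in S2 replicates 3 and 4 and 59.5 to 75.2 CPM in the other 4 libraries.

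Over all 271 rows the sum was 67.4 ± 11.1 CPM in S2 replicates 1 and 2, 110.5 ± 14.6 in S2 replicates 3 and 4 and 71.0 ± 1.82 in S2-AbdA (mean ± SD, n = 2 each). S2-AbdA lay within the values of S2 replicates 1 and 2, and S2 replicates 3 and 4 lay above all other libraries. With the TMM-scaled total as denominator the means were 130 for S2 replicates 3 and 4 and 65.3 for S2-AbdA. Psi rows summed to 48.5 and 38.4 CPM in S2 replicates 1 and 2 and to 86.2 and 67.7 CPM in replicates 3 and 4. Me rows gave 16.2 and 12.5 against 17.1 and 18.8 CPM, a smaller gap in the sums, though the difference between the classes was not tested. Row by row no such gap was seen: the median log2 difference between the S2 sets was 1.09 for 27 tested Me rows and 1.08 for 56 Psi rows. Of these, 12 Me rows and 9 Psi rows passed the filter on low counts only with S2 replicates 3 and 4. In bulk RNA, fewer cells that carry a transcript and less of it per cell cannot be told apart.

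The row of highest level was snoRNA:Psi18S-531 (chrX:657116-657267), an H/ACA guide named for a pseudouridine of 18S ribosomal RNA. It had 7.80, 5.58, 19.3 and 13.8 CPM in S2 replicates 1 to 4 and 9.87 and 8.87 CPM in S2-AbdA. All S2-AbdA values lay between the 2 pairs of S2 libraries, which did not overlap. It alone made up 13.4% of all snoRNA counts, and the 10 rows of highest mean CPM made up 34.2%. Per kilobase of span its mean was 71.5 CPM, against 25.7 for snoRNA:Me18S-A425, 25.1 for snoRNA:Psi28S-2876 and less for the other 268 rows. The deposited span of snoRNA:Me18S-A425 was 57 bases against a RefSeq length of 84, over which its mean was 17.4 CPM per kilobase. Without snoRNA:Psi18S-531 the ratio of summed CPM between S2 replicates 3 and 4 and replicates 1 and 2 was 1.55, against 1.64 with it.

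The next 3 rows by mean CPM were snoRNA:Psi28S-2876 in RpS5a, snoRNA:Psi28S-291 in RpL3 and snoRNA:Tudor-SN-a in Tudor-SN, which encodes a nuclease of the Tudor family. snoRNA:Psi28S-2876 had 2.37, 2.42, 4.18 and 3.21 CPM in S2 replicates 1 to 4 and 4.85 and 4.03 CPM in S2-AbdA. Here S2-AbdA was above S2 replicates 1 and 2, but its log2 difference of 0.85 did not pass the test (adjusted p = 0.358, edgeR's quasi-likelihood test). Copies b, e, a and d of snoRNA:Psi18S-1377, tandem copies within RpS7, also stood among the 10. The 5 copies together had 208, 199, 728 and 624 counts in S2 replicates 1 to 4 and 295 and 227 counts in S2-AbdA. Their levels per kilobase of deposited span ran from 9.50 CPM for copy c to 15.1 for copy a, but the span of copy a was 96 bases against a RefSeq length of 139. Over the RefSeq lengths the 5 copies spanned 9.50 CPM for copy c to 11.8 for copy e, a ratio of 1.24, and reads could be divided between them in either direction.

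**Figure D3:**
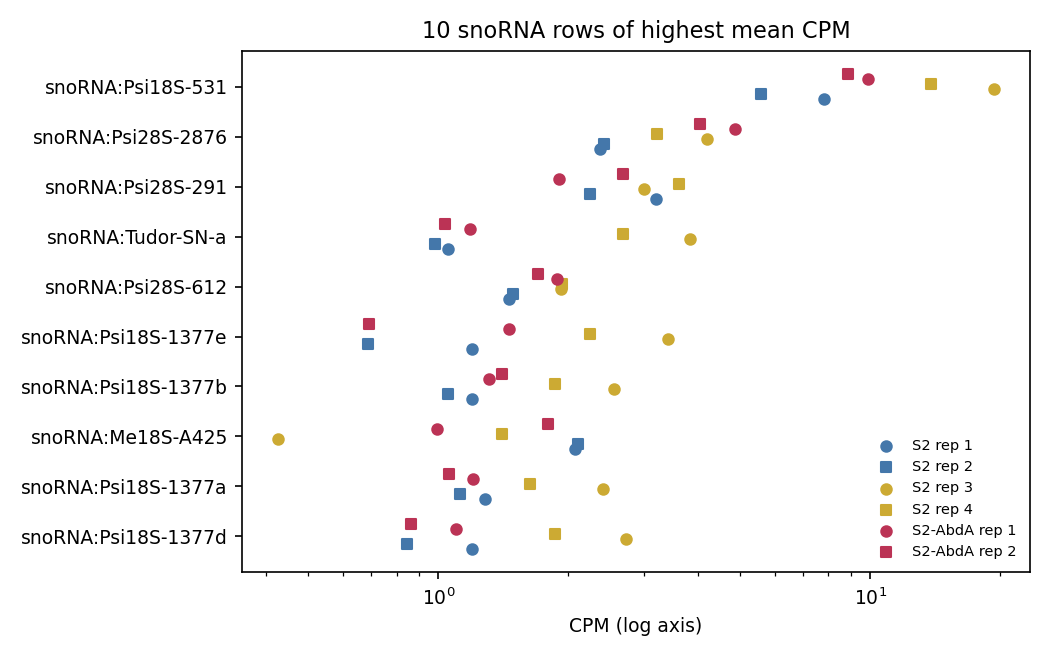
CPM (log axis) of the 10 snoRNA rows of highest mean CPM in each of the 6 libraries, coloured by set, with circles for replicates 1 and 3 and squares for replicates 2 and 4. snoRNA:Psi18S-531 lay between 5.58 and 19.3 CPM, and S2 replicate 3 was the lowest library for snoRNA:Me18S-A425.

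Copies of other families were less even. Among 20 families of 3 or more lettered copies, the copies of snoRNA:Me28S-G1083 in Nop60B differed by 17.7 times per kilobase of RefSeq length and those of snoRNA:Me28S-G2703 in Uhg5 by 12.6 times. By contrast the 3 copies of snoRNA:Psi28S-1175 in RpS16 differed by 1.17 times and the 4 of snoRNA:Psi28S-1192 in RpS5a by 1.41 times. The 11 copies of snoRNA:Psi18S-525, in Arpc2 and Msp-300, had 1 copy past the filter on low counts. The 7 copies of snoRNA:Psi18S-640 in Arpc2 had none past it.

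To ask whether snoRNA genes differed with AbdA, S2-AbdA was set against S2 replicates 1 and 2. One row fell. snoRNA:gp210-a (chr2R:1652680-1652825), which lies in an intron of the nuclear pore gene gp210 and now carries a scaRNA name, that of a guide in the Cajal body for U2 snRNA, had 16 and 23 counts in S2 replicates 1 and 2. It had 1 and 0 counts in S2 replicates 3 and 4 and 1 and 0 in S2-AbdA replicates 1 and 2. The row was thus at or near 0 in 4 libraries, S2 libraries among them. The log2 difference between S2-AbdA and S2 replicates 1 and 2 was -5.26 (SE 0.92, adjusted p = 0.00361, edgeR's quasi-likelihood test with Benjamini-Hochberg adjustment over 9375 genes). Since a fitted value against so few counts depends on the prior count, the ratio of summed counts is given as well: S2 replicates 1 and 2 were 46.9 times S2-AbdA (95% exact interval 7.93 to 1899). The host gp210 itself was at 470, 396, 179 and 496 CPM in S2 replicates 1 to 4 and at 439 and 411 CPM in S2-AbdA, and its log2 difference was -0.07 (adjusted p = 0.997). The difference of the snoRNA row was thus not seen over the host row. With all 4 S2 libraries as 1 group the call on snoRNA:gp210-a was lost.

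Of the 106 snoRNA rows that passed the filter, 1 was called, and it was lower in S2-AbdA than in S2 replicates 1 and 2, against 10.4% called and 7.36% called lower among all genes tested. At an unadjusted p under 0.05, 1 row was higher and 6 were lower by edgeR's test, and DESeq2 called 0 higher and 1 lower. The median log2 difference of the 106 rows was -0.10, and that of all genes was -0.02. No other row passed the threshold (adjusted p under 0.10), which does not show that levels were equal. The count moved from 1 to 3 without S2 replicate 3, to 2 without S2 replicate 4 and to 4 without S2-AbdA replicate 2. The rows added were snoRNA:Me18S-A1806, snoRNA:nop5-x16-a, snoRNA:Psi28S-2949 and snoRNA:Psi28S-2566, each lower in S2-AbdA, and snoRNA:Prp8-a, which was higher. The higher value of snoRNA:Prp8-a (log2 difference 4.11) came without S2-AbdA replicate 2, in which that row had 0 counts.

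The authors' deposited table of genes changed between the groups listed 2122 of the 14770 genes. Of the 271 snoRNA rows it listed 9, 4 lower and 5 higher in S2-AbdA, with false discovery rates from 8.01e-09 to 0.0998. In the authors' deposited table snoRNA:gp210-a had a log2 difference of -5.22, after the column was turned to S2-AbdA over S2 (a check of the headings is in the account of the processing). Of these 9 rows, 4 did not pass the filter here, and 1 of the 5 that did passed the test in the fit of all 6 libraries. In a fit of replicates 1 and 2 of both groups alone, snoRNA:gp210-a, snoRNA:nop5-x16-a and snoRNA:Psi28S-2566 were called, each lower in S2-AbdA. With no filter on low counts, snoRNA:MeU2-C28 was called higher (log2 difference 3.52). Among the 4 that did not pass the filter, snoRNA:MeU2-C28 is named for a methylated nucleotide of U2 snRNA. It had 1, 0, 4 and 6 counts in S2 replicates 1 to 4 and 8 and 9 in S2-AbdA. S2-AbdA was above each S2 library here, from very few counts. snoRNA:Prp8-a had 0, 1, 2 and 12 counts in S2 and 13 and 0 in S2-AbdA, so its S2-AbdA libraries differed from each other as much as any pair.

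S2 replicates 3 and 4 were set against S2 replicates 1 and 2 to see how far the snoRNA rows differed among cells of the same label. Many rows inside ribosomal protein and Uhg genes rose in replicates 3 and 4. Of 106 tested rows, 43 rose and 2 fell, against 18.1% higher and 18.9% lower among all genes tested (edgeR's quasi-likelihood test, adjusted p under 0.10). The median log2 difference was 1.06 for these rows and -0.01 for all genes. Of the 106, 28 passed the filter only with S2 replicates 3 and 4 in the table. This favours rows that were high there, and 16 of the 28 rose and 0 fell. Of the other 78 rows 27 rose and 2 fell, with a median of 0.91.

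The rises were found in each class of name: 24 of 56 tested Psi rows, 11 of 27 Me rows and 8 of 23 others. Among the 78 rows that also passed the filter without S2 replicates 3 and 4, these were 18 of 47, 4 of 15 and 5 of 16. By host they comprised 25 of 54 tested rows in ribosomal protein genes, 9 of 12 in Uhg genes, 7 of 33 in other genes and 2 of 7 outside any other row, and no row in a ribosomal protein or Uhg gene fell. Among the 78 they were 20 of 43 in ribosomal protein genes, 2 of 3 in Uhg genes, 4 of 27 in other genes and 1 of 5 outside any other row. The 2 outside any row were snoRNA:Me28S-A2634c and snoRNA:Psi28S-3342. The former lies in an intron of Uhg7 in the later annotation. The latter had 5, 5, 25 and 21 counts in S2 replicates 1 to 4 and passed the filter only with S2 replicates 3 and 4. Both of these calls were lost without S2 replicate 1, 2 or 3. The count depended on single libraries. Each fit with 1 library left out repeated the filter and the adjustment over all genes. Calls among all genes in those fits were not set beside these counts, so a dependence particular to snoRNA rows is not shown. Without S2 replicate 1, 23 rows rose and 1 fell, and without S2 replicate 2, 5 rose and 1 fell. Without S2 replicate 3, 16 rose and 2 fell, and without S2 replicate 4, 66 rose and 5 fell. Scaled by library size alone, 21 rose and 2 fell.

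Many short genes of other kinds also rose. Among 199 tested genes outside the snoRNA rows with an exonic length of 500 bases or less, 82 rose (41.2%) and 32 fell, and their median log2 difference was 0.76. The part of transcript length in the snoRNA result was not tested.

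snoRNA:Psi28S-2996 in RpL5 had 25, 28, 172 and 131 counts in S2 replicates 1 to 4 and 47 and 30 in S2-AbdA. S2 replicates 3 and 4 were each far above the other 4 libraries. The log2 difference between the S2 pairs was 2.23 (SE 0.51, adjusted p = 0.0121). snoRNA:Tudor-SN-a had 36, 43, 207 and 187 counts in S2 and 56 and 48 in S2-AbdA, the same order of libraries, and a log2 difference of 2.01 (SE 0.46, adjusted p = 0.0121). snoRNA:Me18S-U1356a, a methylation guide in Uhg8, had 2, 4, 27 and 22 counts in S2 and 5 and 6 in S2-AbdA (log2 difference 2.68, SE 0.66, adjusted p = 0.0159), and it was one of the 28 rows that passed the filter only with S2 replicates 3 and 4. These 3 rows and snoRNA:gp210-a were the 4 of 22 named calls in this comparison that held whichever single library was left out. All these tests were edgeR's quasi-likelihood test.

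The rise of snoRNA:Psi18S-531, 1.65 on the log2 scale (SE 0.41, adjusted p = 0.0171), was lost without S2 replicate 2 (adjusted p = 0.208). Further rows with the smallest adjusted p values were snoRNA:Psi28S-1135b and snoRNA:Psi18S-1854c in RpS5a, snoRNA:Psi28S-1175c in RpS16, snoRNA:Me28S-G3255a in Uhg4, snoRNA:Psi18S-841d in dom and snoRNA:Psi18S-1377e in RpS7, with log2 differences from 1.93 to 2.69. Each of these calls was lost without at least 1 library, and snoRNA:Psi28S-1135b, snoRNA:Psi18S-1854c, snoRNA:Me28S-G3255a and snoRNA:Psi18S-841d were among the 28 rows just described. snoRNA:Psi18S-841d had 2, 3, 20 and 19 counts in S2 and 1 and 4 in S2-AbdA. It was the single copy of its 4 in dom that passed the filter.

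Both rows that fell lay in genes that hold no other snoRNA row, and snoRNA:Me18S-G1189 matched no later gene. snoRNA:gp210-a was at 39 counts in S2 replicates 1 and 2 together and at 1 count in replicates 3 and 4 together, a ratio of 61.9 after scaling by total counts (95% exact interval 10.5 to 2509). snoRNA:Me18S-G1189 in NK7.1, a homeobox gene, had 18, 24, 8 and 9 counts in S2 replicates 1 to 4 and 11 and 12 counts in S2-AbdA (log2 difference -1.67, adjusted p = 0.0381, edgeR's quasi-likelihood test). That call was lost without S2 replicate 1, 2 or 4. Its host row fell too, with 58.3, 64.9, 8.14 and 19.6 CPM in S2 (log2 difference -1.93, adjusted p = 0.0129).

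**Figure D4:**
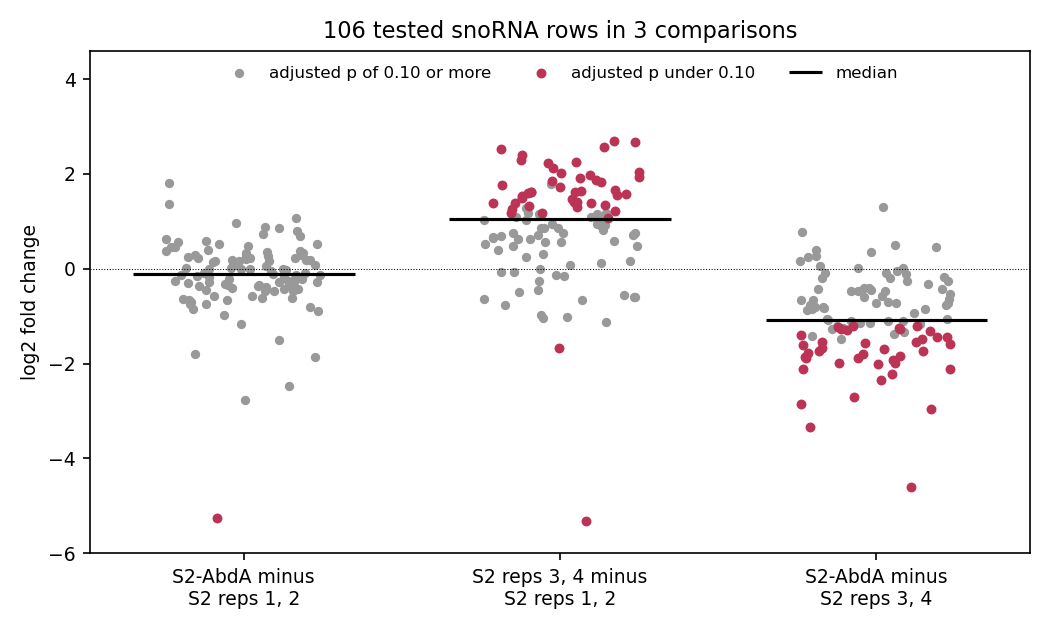
Log2 fold change of each of the 106 tested snoRNA rows (points) in the 3 comparisons, with rows of adjusted p under 0.10 in red and the median as a line. The medians were -0.10, 1.06 and -1.09, and snoRNA:gp210-a was the lowest point of the first and of the second comparison.

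How a snoRNA row moved was set beside its host row, which counts mainly the spliced mRNA. In S2 replicates 3 and 4 against 1 and 2, 41 rows that rose had a tested host. The host also rose for 23 of them (56.1%, in 8 hosts), fell for 1 and did not pass the test for 17. The 1 was CG5953, which holds snoRNA:Me28S-C1237, a row that matched no later gene. Counted by host rather than by row, 8 of the 21 hosts rose, against 19 of 103 tested host rows (18.4%). Across 51 hosts, taking the median of the snoRNA rows in each, Pearson's r between the log2 differences was 0.41 and Spearman's rho 0.48, and the snoRNA rows had the larger difference in 38 of 51. These points share the same 4 libraries and their scaling. They and the 41 rows include rows that passed the filter only with S2 replicates 3 and 4. That filter favours rows that were high there, so these values cannot show that snoRNA rows rose beyond their hosts. The comparison with hosts was not made without those rows. The 29 ribosomal protein host rows had a median log2 difference of 0.77, with 5 up and 1 down. The 55 tested ribosomal protein rows that hold no snoRNA row had the same median of 0.77, with 12 up and 2 down. The shares up were 17.2% and 21.8%, near the 18.1% of all genes tested, and 18.9% of all genes fell.

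In Uhg genes both host and snoRNA rows were higher in S2 replicates 3 and 4. Of 7 Uhg rows 6 rose, against 18.1% among all genes tested, and the median log2 difference of the 7 was 1.25. Uhg4 was at 25.5, 26.0, 68.8 and 44.6 CPM in S2 replicates 1 to 4 and its 6 snoRNA rows summed to 0.906, 0.617, 2.57 and 2.10 CPM. Both thus lay higher in replicates 3 and 4, by ratios of 2.20 and 3.07. Uhg5 and its rows differed by 1.88 and 2.85, and Uhg8 and its rows by 1.93 and 6.55, the latter from at most 47 counts in a library. The sum of the 4 rows of RpL17 was flat, with 3.45, 3.31, 3.57 and 3.31 CPM in S2, and so was their host, at ratios of 1.02 for the rows and 0.97 for the host. Within that sum snoRNA:Psi28S-1232 had 0.906, 0.845, 1.72 and 1.25 CPM, a log2 difference of 1.09 that did not pass the test (adjusted p = 0.102, edgeR's quasi-likelihood test), and the other 3 rows had differences from -0.12 to 0.00.

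For RpL22 the 2 differed in sign. Its row was at 926 and 1100 CPM in S2 replicates 1 and 2 and at 156 and 576 CPM in replicates 3 and 4, a log2 difference of -1.29 that did not pass the test (SE 0.56, adjusted p = 0.105, edgeR's quasi-likelihood test), while snoRNA:Psi18S-531 inside it rose. Counts of snoRNA:Psi18S-531 per 1000 counts of RpL22 were 8.43, 5.07, 124 and 24.0 in S2 replicates 1 to 4 and 29.9 and 9.03 in S2-AbdA, so the ratio differed even between replicates of a set. In the later annotation the same snoRNA also lies in an intron of a shorter noncoding gene within RpL22, CR42491, whose row in the files (chrX:657474-657843) covers a stretch next to it. That row, chosen after the values were seen, was at 68.4, 46.9, 215.8 and 135.7 CPM in S2 replicates 1 to 4 and at 78.3 and 69.7 CPM in S2-AbdA. Per 1000 counts of CR42491 there were 114, 119, 89.5 and 102 counts of snoRNA:Psi18S-531 in S2 and 126 and 127 in S2-AbdA, a narrow range over all 6 libraries. CR42491 rose by 1.96 on the log2 scale in S2 replicates 3 and 4 (SE 0.43, adjusted p = 0.00948, edgeR's quasi-likelihood test), a call lost without S2 replicate 2 (adjusted p = 0.125). The second snoRNA row of RpL22, snoRNA:Psi28S-2179, had 36, 31, 25, 42, 27 and 46 counts in the same order of libraries and was not higher in S2 replicates 3 and 4.

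Tudor-SN showed a similar contrast between row and host. Its second snoRNA row, snoRNA:Psi18S-996, had 1, 2, 3 and 6 counts in S2 and 2 and 1 in S2-AbdA and was not tested. The host was at 535, 476, 230 and 481 CPM in S2 replicates 1 to 4 and 287 and 472 in S2-AbdA. snoRNA:Tudor-SN-a gave 1.97, 2.06, 16.7 and 5.57 counts per 1000 counts of the host in S2 and 4.12 and 2.19 in S2-AbdA. The ratio was highest in S2 replicate 3, in which the host was lowest.

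**Figure D5:**
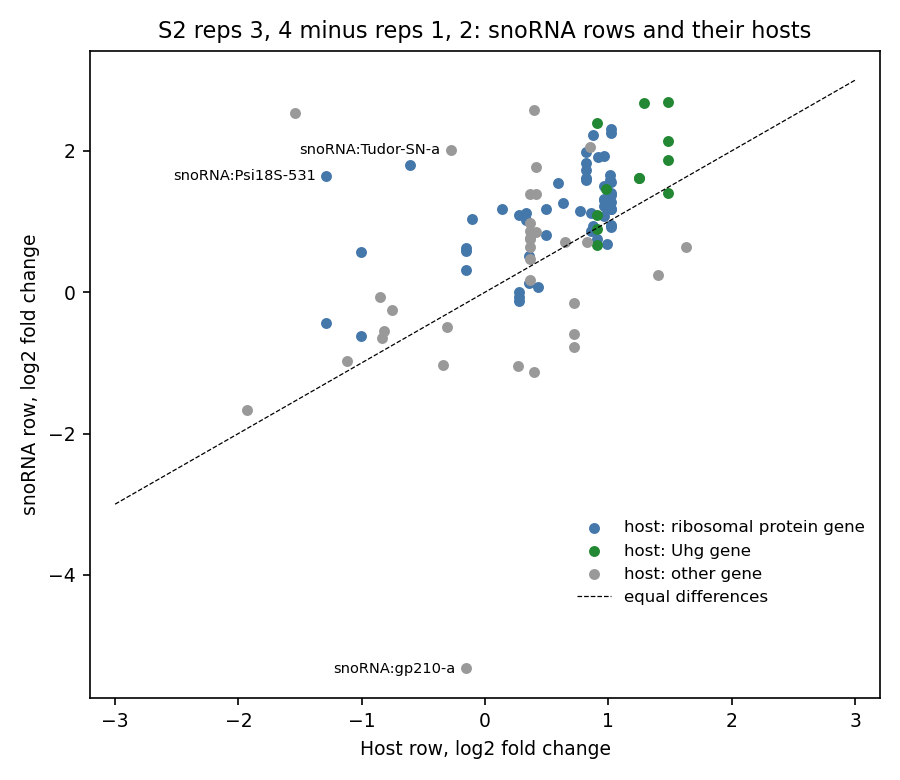
Log2 fold change of 99 snoRNA rows (vertical axis) against that of their host row (horizontal axis) for S2 replicates 3 and 4 against replicates 1 and 2, coloured by the kind of host. The dashed line marks equal differences, snoRNA:Psi18S-531 and snoRNA:Tudor-SN-a lie above it, and snoRNA:gp210-a lies far below it.

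S2 replicate 3 was low for a few rows in spite of its high sum. Of the 106 tested rows, 8 had their lowest CPM there: snoRNA:291, snoRNA:Me28S-U1230, snoRNA:Me18S-A425, snoRNA:Me28S-G2596, snoRNA:Me28S-G2017, snoRNA:Psi28S-3571, snoRNA:dmt-a and snoRNA:Psi28S-2179. snoRNA:Me18S-A425, which overlaps an exon of RpL3 in the later annotation, had 71, 92, 23 and 98 counts in S2 and 47 and 83 in S2-AbdA. RpL3 itself was at 4269, 4344, 1027 and 2673 CPM in S2, so both were lowest in the same library. Summed over the 14 exonic rows, S2 replicate 3 had 0.746 times the CPM of replicate 4, against 1.25 times over the 219 intronic rows and 0.667 times over the 29 unmatched rows.

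S2-AbdA was also set against S2 replicates 3 and 4. This comparison shares libraries with both others, so its values stand beside theirs and do not add to them. Of 106 tested rows, 0 were higher and 40 fell, against 14.7% higher and 17.1% lower among all genes tested, and the median log2 difference was -1.09. At an unadjusted p under 0.05 edgeR's test found 0 higher and 47 lower, and DESeq2 called 0 higher and 24 lower. Of the 78 rows that also passed the filter without S2 replicates 3 and 4, 27 fell and 0 were higher. By host these were 21 of 43 in ribosomal protein genes and 3 of 3 in Uhg genes. The rest were 2 of 27 in other genes and 1 of 5 outside any other row. Among all 106 rows, 25 of 54 in ribosomal protein genes and 8 of 12 in Uhg genes fell. So did 4 of 33 in other genes and 3 of 7 outside any other row. Without S2 replicate 3 the count was 12, and without S2 replicate 4 it was 67, of which 1 was higher. Without S2-AbdA replicate 1 it was 24, of which 1 was higher, and without S2-AbdA replicate 2 it was 12.

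The lowest adjusted p belonged to snoRNA:Psi28S-2949 in Uhg4 (chr2R:4982877-4983031). It had 4, 6, 23 and 36 counts in S2 replicates 1 to 4 and 0 and 2 counts in S2-AbdA, which was thus below every S2 library. S2 replicates 3 and 4 together were 22.3 times S2-AbdA (95% exact interval 5.91 to 189), and the log2 difference was -4.61 (adjusted p = 0.00278, edgeR's quasi-likelihood test). Against S2 replicates 1 and 2 the ratio was 6.01 (1.28 to 56.4) and the difference of -2.47 did not pass (adjusted p = 0.180). snoRNA:Me18S-A28a in Uhg1 had 4, 8, 19 and 24 counts in S2 and 2 and 3 in S2-AbdA (log2 difference from S2 replicates 3 and 4 of -2.97, adjusted p = 0.00964). snoRNA:Psi28S-2648 in RpL36A had 22, 17, 76 and 68 counts in S2 and 16 and 17 in S2-AbdA (log2 difference -2.11, adjusted p = 0.0179). With snoRNA:Psi28S-1175b and snoRNA:Tudor-SN-a, these made up the 5 of 19 named calls in this comparison that held whichever single library was left out. Of these, snoRNA:Psi28S-2949 and snoRNA:Me18S-A28a passed the filter only with S2 replicates 3 and 4.

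Other rows named by the rule in this comparison were snoRNA:Psi18S-841d, snoRNA:Psi28S-2996, snoRNA:Psi28S-1192a in RpS5a, snoRNA:Or-aca1 in RpS16 and snoRNA:Psi18S-525k in Msp-300. Their log2 differences ran from -2.86 to -1.88, and each of these calls was lost without at least 1 library. snoRNA:Psi18S-841d, snoRNA:Psi18S-525k and snoRNA:Me18S-A1806 passed the filter only with S2 replicates 3 and 4 in the table. snoRNA:Me18S-A1806, outside any other row, had 8, 4, 13 and 10 counts in S2 and 1 and 1 in S2-AbdA (log2 difference from S2 replicates 3 and 4 of -3.33, adjusted p = 0.0251; from replicates 1 and 2 of -2.77, adjusted p = 0.121, edgeR's quasi-likelihood test). S2-AbdA was below every S2 library for it, as for snoRNA:Psi28S-2949, and the call against S2 replicates 3 and 4 was lost without S2 replicate 3 (adjusted p = 0.104).

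Genes for the proteins of the snoRNA particles were read in the same fit. Of 8 core genes, 5 rose in S2 replicates 3 and 4, against 18.1% higher among all genes tested: hoip and Fib of the C/D particle, Nop56, which joins Fib there, and NHP2 and CG7637 (Nop10) of the H/ACA particle. Fib was at 199, 128, 481 and 315 CPM in S2 replicates 1 to 4 and at 167 and 155 CPM in S2-AbdA. S2 replicates 3 and 4 were above all other libraries, as for the snoRNA sums. Log2 differences of the 5 ran from 1.54 for CG7637 to 2.17 for hoip. No call was made for the enzyme of the H/ACA particle: Nop60B had 306, 213, 191 and 397 CPM in S2 (log2 difference 0.41, adjusted p = 0.409, edgeR's quasi-likelihood test), and nop5 and CG4038 (Gar1) had differences of -0.31 and -0.66 that did not pass. Between S2-AbdA and S2 replicates 1 and 2, 0 of the 8 were called by edgeR or DESeq2 (1 was lower at an unadjusted p under 0.05), and 5 were lower in S2-AbdA than in S2 replicates 3 and 4, against 17.1% lower among all genes tested (adjusted p under 0.10). The 5 rises became 1 without S2 replicate 2, stood beside 2 falls without S2 replicate 4, and the 5 lower genes became 3 without S2-AbdA replicate 2. Without S2 replicate 3 or 4, 1 of the 8 was called lower in S2-AbdA than in S2 replicates 1 and 2.

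Of 22 genes of snoRNA assembly, processing and decay, 7 rose and 1 fell in S2 replicates 3 and 4, against 18.1% higher and 18.9% lower among all genes tested. The 7 were the exosome subunits Csl4 (log2 difference 1.84), Ski6 (1.76), Rrp40 (1.55), Rrp4 (1.43) and Rrp42 (0.98), the poly(A)-binding protein gene Pabp2 (1.10) and the lariat debranching gene ldbr (0.99). Rrp6, the nuclear exosome nuclease that trims snoRNA ends in yeast, was the 1 that fell (-1.35, SE 0.50, adjusted p = 0.0700, edgeR's quasi-likelihood test). It had 63.1, 49.3, 10.2 and 27.9 CPM in S2 and 21.3 and 56.4 CPM in S2-AbdA, and its S2-AbdA values lay inside the range of the S2 libraries. Between S2-AbdA and S2 replicates 1 and 2, 0 of the 22 passed edgeR's or DESeq2's test or an unadjusted p under 0.05, and 9 fell relative to S2 replicates 3 and 4, against 17.1% lower among all genes tested. Without S2 replicate 3 or without S2 replicate 4, 1 of the 22 was called lower in S2-AbdA than in S2 replicates 1 and 2. The 7 rises became 3 when S2 replicate 1 was left out, 0 when replicate 2 was, and 12, with 6 falls, when replicate 4 was. The call on Rrp6 was lost without S2 replicate 1, 2 or 3. The 9 became 4 without S2 replicate 1, S2 replicate 2 or S2-AbdA replicate 1 and 0 without S2-AbdA replicate 2, and 12, with 5 higher, without S2 replicate 4.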

How the data were processed

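Polyadenylated RNA was measured in 6 libraries, grouped by their titles. The authors deposited raw counts per gene and library, and the submitters' processing notes name CASAVA, edgeR and dm3. Aligner, counter, annotation release and strand setting: not given in the sources used here. The authors also deposited a table with log2 values, p-values and false discovery rates. Set against the counts, its 2 log2 headings were exchanged (across 2122 genes, logConc had r = -0.946 with log2 S2-AbdA/S2 of the CPM plus 0.1 in replicates 1 and 2, and logFC had r = 0.993 with mean log2 CPM), so that column was turned.

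Genes were kept with filterByExpr on 3 sets (S2 replicates 1 and 2, S2 replicates 3 and 4, S2-AbdA), scaled by TMM and fitted with edgeR's robust quasi-likelihood test, with Benjamini-Hochberg adjustment over 9375 genes and a threshold of 0.10. The common biological coefficient of variation was 0.291. The procedure was tested on simulated data. CPM used the total count. Hosts were found by overlap of dm3 coordinates, and introns, exons and current names came from the later annotation through gene numbers, within its own build. The snoRNA genes, gene lists and tests were chosen with earlier results of these data known. Named genes were the 10 rows of highest mean CPM, up to 10 called rows per direction and comparison by adjusted p, their hosts, hosts of 4 or more rows and particle proteins past the test. Alternatives were other scalings, no filter, DESeq2, each library left out, a replicate block, all S2 libraries as 1 group and rows that overlap no other. R 4.3.3, edgeR 4.0.16, limma 3.58.1, DESeq2 1.42.0, Python 3.11.15, pandas 2.3.3, numpy 2.4.6 and scipy 1.17.1 were used.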

Additional observations from a re-analysis of the deposited data

How the results depend on the processing

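For S2-AbdA against S2 replicates 1 and 2, the 1 call became 2 with no filter. It became 3 in a fit of replicates 1 and 2 alone and 0 with all 4 S2 libraries as 1 group (median -0.68). The fit over rows that overlap no other also gave 0. That fit left out snoRNA:gp210-a, which lies inside gp210, so it could not test that call. With 1 library left out the median ran from -0.21 to 0.18. For S2 replicates 3 and 4 against 1 and 2, the 45 calls became 23 scaled by library size alone (median 0.75), 69 with no filter, 29 with DESeq2, 2 of 7 rows that overlap no other (median 0.51), and 6 to 71 with 1 library left out (median 0.59 to 1.53). For S2-AbdA against S2 replicates 3 and 4, the 40 calls became 17 by library size alone (median -0.74), 24 with DESeq2, 3 of the rows that overlap no other (median -0.59), and 12 to 67 with 1 library left out (median -1.36 to -0.74). Library size alone moved the median of all genes to -0.27 in the former and 0.30 in the latter comparison. In the main fit the 7 tested rows inside no other row already had 2 and 3 calls in these comparisons. The lower counts over rows that overlap no other thus reflect the rows left out. Over the 78 rows that pass the filter without S2 replicates 3 and 4, an alternative chosen after seeing the data, 29 calls stood for the S2 sets and the median was -0.81 for S2-AbdA against S2 replicates 3 and 4. With the TMM total the summed CPM was 130 in S2 replicates 3 and 4 and 65.3 in S2-AbdA. Detection was 246 rows at 1 count in any library, 60 at 10 counts in every library and 6 at 1 CPM. Of the 42 named calls 9 were never lost and none reversed. The cause was not tested. Most rows had under 100 counts over all libraries, which limits these tests.

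Same-numbered replicates of S2 and S2-AbdA did not deviate together across genes (r = -0.00683). With 2 libraries in each group this cannot show whether the samples were paired, and no label says so. A fit with the replicate number as a block gave 2 calls, snoRNA:gp210-a and snoRNA:nop5-x16-a.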

Other observations

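Other small RNA rows had few counts as well. Of 22 snRNA rows, the RNAs of the spliceosome and relatives, 6 passed the filter. In S2 replicates 3 and 4 against replicates 1 and 2, 2 rose and 1 fell, against 18.1% and 18.9% of all genes tested. The row that fell was snRNA:U3:22A, a C/D RNA that acts in cleavage of the ribosomal RNA precursor. It had 21, 27, 7 and 4 counts in S2 replicates 1 to 4 and 9 and 4 in S2-AbdA, so S2 replicates 1 and 2 were above the other 4 libraries, as for snoRNA:gp210-a. Its log2 difference was -2.44 between the S2 sets (adjusted p = 0.0192) and -2.17 between S2-AbdA and S2 replicates 1 and 2 (adjusted p = 0.0469, edgeR's quasi-likelihood test). These comparisons share S2 replicates 1 and 2, and the latter call was lost without S2 replicate 1 (adjusted p = 0.106), S2 replicate 2 (0.143) or S2-AbdA replicate 2 (0.265). Of 200 mir rows, 111 had no count and 14 passed the filter.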
